A study of Homo sapiens with 13 samples.

Results

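Metastatic line M4 was compared with the control cells of the same tumour, on the 7 of 13 arrays whose titles name M4 or a control. The fit took in all 13 arrays, so the spread behind each p-value also draws on M1 and M5, other lines of the series. M4 filled 3 arrays, control cells without a luciferase reporter 2, and control cells carrying the reporter 2. All are human non-small cell lung carcinoma cells, and the question set by the title of the series is which genes mark the metastatic state. The labels say that M4 came from bone of mice that had received control cells by injection into the heart, and that metastatic activity was then measured by reinoculating 10 mice per group. Thus M4 and both controls share 1 tumour origin, M4 is 1 selected line, and passage through a mouse separates it from the controls as well as its metastatic activity. The labels do not say whether M4 carries the reporter, so the controls were pooled with equal weight to each kind, and values against each kind alone are given where they differ. RNA of 3 groups of cells was pooled on each array and the arrays are called biological replicates, so p-values measure only the spread between these pools.

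Bone metastases form when tumour cells that reach the marrow survive there and disturb the balance between osteoclasts, which resorb bone, and osteoblasts, which build it. Tumour cells can do this with secreted factors such as parathyroid hormone-related protein, interleukins and inhibitors of Wnt signalling, while growth factors freed from the resorbed matrix act back on them. Lines that colonise an organ are commonly made by repeated selection in animals, and they can differ from their parent cells in adhesion, in drug and aldehyde metabolism, in receptors for cytokines and in chromosome content.

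The 3 M4 arrays were not equally alike. Across genes, which are not independent replicates, M4 arrays correlated with each other with r between 0.992 and 0.998, and with control arrays with r between 0.991 and 0.996. Only 1 gene differed at least 2-fold between M4 replicates 2 and 3, whereas 47 of 11963 genes differed at least 2-fold between M4 replicate 1 and the mean of the other two. The 62 Affymetrix control probe sets, of which 45 report spiked-in RNA, split the 13 arrays into 4 groups, called array batches here although the labels record none. M4 replicate 1 fell in batch 2 with replicate 2 of each control, and its nearest array over all genes was the control with luciferase replicate 2. M4 replicates 2 and 3 fell in batch 3 with no control, and batch 1 held the other control arrays. The spike-ins alone gave 3 groups and put M4 replicates 2 and 3 together with replicate 1 of each control; a block of these 3 groups called 49 genes in M4. Differences are given from the deposited values as they stand and then from a fit that takes the 4 batches as a block, in which M4 replicates 2 and 3 are tied to control only through arrays of M1, another bone-metastatic line. Within-batch values set M4 replicate 1 against the 2 control arrays of batch 2.

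The label of lung carcinoma cells was checked against epithelial, mesenchymal and lung markers. Of 16 lung lineage genes, 5 lay under the lower quartile on all 7 arrays, as did 2460 of all 11963 genes. The lung transcription factor NKX2-1 was at 5.31 ± 0.12 (SD, n = 4) in control and 5.20 ± 0.15 (SD, n = 3) in M4. The surfactant gene SFTPB was at 5.88 and 5.92, like NKX2-1 under the median signal of all genes, 6.20. The surfactant gene SFTPC, at 6.89 and 6.73, lay above that median. Keratins were abundant, with KRT18 at 12.65 ± 0.08 (log2 signal, SD, n = 4) in control and 12.46 ± 0.09 (SD, n = 3) in M4. KRT19 was at 10.64 ± 0.45 in control and 10.45 ± 0.08 in M4. The epithelial adhesion genes EPCAM, at 3.43 ± 0.03 and 3.42 ± 0.25, and CDH1, at 3.81 ± 0.04 and 3.71 ± 0.06, had means under the lower quartile of all signals, which lay between 4.41 and 4.56 on these 7 arrays. VIM, the intermediate filament of mesenchymal cells, was at 13.11 ± 0.09 in control and 12.87 ± 0.06 in M4. So both groups carried keratins and vimentin together, with E-cadherin at the level of the dimmest genes. The haematopoietic marker PTPRC was at 3.96 in control and 3.93 in M4, and the endothelial marker VWF at 3.81 and 3.94, also under the lower quartile. Of the human markers of other cell types, 0 of 13 haematopoietic, 0 of 11 endothelial, 0 of 13 fibroblast and stromal, 0 of 6 osteoblast and 0 of 4 osteoclast genes were called in M4 by either fit, where 0.092% of all genes were called without and 0.15% with the batch block, so counts of 0 are at the background. These probe sets are designed for human RNA and do not measure how much mouse tissue a culture held. In such bulk samples, fewer cells of a type and less RNA per cell cannot be told apart.

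A gene was called at a limma adjusted p under 0.05 over all 11963 genes. Few genes were called in M4: 11 (0.092% of those tested) from the deposited values, of which 8 rose (0.0669%) and 3 fell (0.0251%). With the batches as a block 18 were called (0.15%), of which 12 rose (0.1%) and 6 fell (0.0502%). The 2 fits shared 8 genes in the same direction, 6 up and 2 down, and 21 genes were called in either. The shared rises were ALDH1A1, CRIP1, ABCG2, MXRA7, BTBD3 and COCH, and the shared falls were IL13RA2 and RAB31. At an unadjusted p under 0.05, 827 genes (6.91%) lay without the block and 839 (7.01%) with it. All 3 M4 arrays lay above all 4 control arrays for 708 genes (5.92%) and below them for 661 (5.53%). At least 2-fold higher in M4 were 24 genes and at least 2-fold lower were 9, and the median difference of all genes was -0.0011 log2 units. Leaving out 1 array gave between 1 and 9 calls without the block, 9 without M4 replicate 1 and 1 or 2 without any other array. With the block it gave between 2 and 19, with 2 without control with luciferase replicate 2 and 3 without M4 replicate 1.

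**Figure D1:**
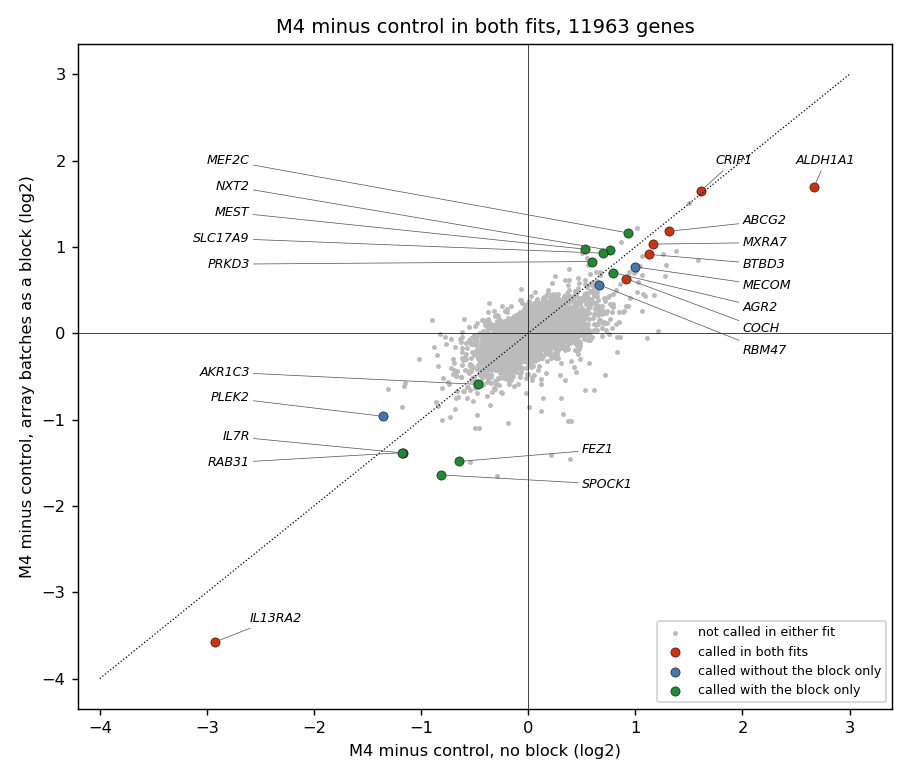
Each point is 1 of 11963 genes, with its M4 minus control difference from the deposited values on the x axis and with the array batches as a block on the y axis (both log2), and the dotted line marks equal values. Called genes are coloured by fit and named, IL13RA2 lies lowest on both axes, and ALDH1A1 lies highest on both while below the line, since its difference is 2.67 without the block and 1.69 with it; the point of RAB31 is covered by that of IL7R.

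The promoters of 3 genes called in both fits are shown as examples: ALDH1A1 and CRIP1 had the largest rises among the shared calls and RAB31 fell on all of its probe sets. They are RefSeq sequences of build GRCh38.p14, from 250 bases before to 50 bases after the gene's start, written 5′ to 3′ along the gene's strand. ALDH1A1 is at chr9:72953004-72953303 on the minus strand, CRIP1 at chr14:105486636-105486935 on the plus strand and RAB31 at chr18:9708051-9708350 on the plus strand. Capitals mark every match, on either strand, to TATAAA, to CCAAT, to GGGCGG or to TGACTCA, which are core letters of the TATA box, the CCAAT box, the GC box bound by Sp1 and the AP-1 site.
ALDH1A1: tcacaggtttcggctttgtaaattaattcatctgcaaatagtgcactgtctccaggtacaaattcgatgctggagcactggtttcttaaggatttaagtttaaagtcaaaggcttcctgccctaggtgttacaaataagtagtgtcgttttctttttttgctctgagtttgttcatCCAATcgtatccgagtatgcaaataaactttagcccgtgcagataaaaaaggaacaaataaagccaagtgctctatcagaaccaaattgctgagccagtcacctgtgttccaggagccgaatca
CRIP1: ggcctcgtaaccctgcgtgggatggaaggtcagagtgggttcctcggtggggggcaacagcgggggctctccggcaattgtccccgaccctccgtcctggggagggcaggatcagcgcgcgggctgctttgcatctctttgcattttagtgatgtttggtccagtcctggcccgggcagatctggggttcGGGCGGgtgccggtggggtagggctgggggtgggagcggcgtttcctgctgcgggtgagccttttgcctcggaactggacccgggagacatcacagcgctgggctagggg
RAB31: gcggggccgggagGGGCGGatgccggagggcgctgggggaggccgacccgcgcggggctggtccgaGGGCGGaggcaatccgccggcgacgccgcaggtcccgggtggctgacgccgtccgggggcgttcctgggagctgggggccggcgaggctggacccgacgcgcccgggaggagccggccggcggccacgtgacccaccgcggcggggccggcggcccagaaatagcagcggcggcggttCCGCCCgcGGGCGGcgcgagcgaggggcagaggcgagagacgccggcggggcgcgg
ALDH1A1 held 1 CCAAT match, CRIP1 1 GGGCGG match and RAB31 4 GGGCGG matches, and the G and C content was 40.3%, 66.3% and 82.7%. Among 9562 promoters of genes on the array, 37.3% held CCAAT, 63.1% GGGCGG, 8.30% TATAAA and 3.56% TGACTCA. Of the 21 called genes, 18 matched an entry, and 6 of these held CCAAT, 6 GGGCGG, 4 TATAAA and 0 TGACTCA. No searched motif contains another, a match is a description of these letters, and their absence says only that they are not in this window. IL13RA2, SLC17A9 and SPOCK1 were not matched.

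ALDH1A1, the cytosolic aldehyde dehydrogenase that makes retinoic acid from retinal, showed the largest rise in M4. Its log2 signal was 10.07, 11.67 and 11.57 in M4 replicates 1 to 3, against 9.82 and 9.42 in controls without luciferase and 7.23 and 7.29 in controls with it. All M4 arrays lay above all controls, but the controls themselves lay far apart by kind, and M4 replicate 1 was only slightly above the higher control. The gene rose 6.35-fold (log2 difference 2.67 ± 0.40, SE; limma adjusted p = 0.0404), and 3.23-fold with the block (1.69 ± 0.13, limma adjusted p = 0.000474). The difference was 1.49 against controls without luciferase, 3.85 against those with it, and 1.72 within batch 2. The controls differed from each other by -2.36 log2 units (with minus without luciferase), called with the block (limma adjusted p = 1.49e-05, where 0.0167% of genes were called) and not without it (0.9999), so the size of the rise depends on the kind of control. Leaving out each of the 7 arrays kept the call in 7 of 7 fits with the block (adjusted p from 0.000661 to 0.0424), and in 1 of 7 without it (0.00632, without M4 replicate 1, to 0.344, without M4 replicate 3).

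ABCG2, an efflux transporter of drugs and porphyrins that is often studied together with ALDH1A1 as a marker of stem-like tumour cells, rose as well. It was at 9.21, 9.47 and 9.46 in M4, and at 8.04 and 7.88 without and 8.40 and 7.92 with luciferase. Here the 4 controls lay close together and every M4 array exceeded the highest of them. The gene rose 2.49-fold (1.32 ± 0.18, limma adjusted p = 0.0247), 2.27-fold with the block (1.18 ± 0.13, limma adjusted p = 0.00597), and differed by 1.31 within batch 2. Leaving out 1 array kept the call in 2 of 7 fits without the block, with adjusted p up to 0.259 without M4 replicate 3, and in 5 of 7 with it, lost without M4 replicate 1 (0.303) or control with luciferase replicate 2.

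CRIP1, a small LIM-domain protein first known from intestine, had the lowest adjusted p of all genes without the block. Its signal was 6.33, 5.93 and 6.25 in M4, against 4.61 and 4.66 without and 4.58 and 4.39 with luciferase. The control values are near the lower quartile of their arrays, while the M4 values are near the median signal of 6.20, so the fold compares with a signal close to background. It rose 3.06-fold (1.61 ± 0.15, limma adjusted p = 0.000909), 3.13-fold with the block (1.65 ± 0.15, limma adjusted p = 0.00169), and differed by 1.81 within batch 2. CRIP1 was the only gene called in each of the 7 fits that left out 1 array without the block (adjusted p from 0.0021 to 0.0153). With the block the call was lost without M4 replicate 1 (0.114). The rule for naming genes took CRIP1 through its calls against the other lines, since its signal is not above the median.

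The other shared rises were smaller. MXRA7, a little-studied membrane protein named for its link to matrix remodelling, was at 9.00, 9.18 and 9.12 in M4, against 7.80 and 7.91 without and 8.10 and 7.94 with luciferase, a 2.24-fold rise (1.16 ± 0.17, limma adjusted p = 0.0313). BTBD3, a BTB-domain protein that orients dendrites in neurons, was at 8.77, 9.03 and 9.02 against 7.56, 7.97, 7.76 and 7.99, a 2.18-fold rise (1.12 ± 0.17, limma adjusted p = 0.0408). COCH, the secreted matrix protein cochlin, was at 7.97, 8.16 and 8.17 against 7.22, 7.31, 6.93 and 7.29, a 1.88-fold rise (0.91 ± 0.15, limma adjusted p = 0.0448). For all 3 genes the M4 arrays lay close together and above every control. Within batch 2 they differed by 1.08, 0.80 and 0.67, and with the block by 1.03, 0.91 and 0.63. Each fit without 1 array left them above an adjusted p of 0.05 without the block (0.0541 to 0.37), while with it BTBD3 kept its call in 4 of 7 fits and MXRA7 and COCH in 0 of 7, with adjusted p up to 0.489 and 0.563 without M4 replicate 1.

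IL13RA2, a receptor that binds interleukin-13 and acts mainly as a decoy, showed the deepest fall. Its signal was 4.43, 6.26 and 5.84 in M4, against 6.73 and 8.11 without and 9.43 and 9.45 with luciferase. Every M4 array lay below every control, M4 replicate 1 had the lowest value, and the controls with luciferase were the highest. The gene fell 7.58-fold (-2.92 ± 0.37, limma adjusted p = 0.0187), and 11.9-fold with the block (-3.58 ± 0.41, limma adjusted p = 0.00597). The difference was -1.91 against controls without luciferase, -3.94 against those with it, and -4.35 within batch 2. Leaving out 1 array kept the call in 3 of 7 fits without the block and 5 of 7 with it, with the highest adjusted p at 0.0886 without control with luciferase replicate 2 and, with the block, 0.219 without M4 replicate 1.

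RAB31, a small GTPase of vesicle transport between the Golgi and endosomes, fell too. It was at 6.92, 6.66 and 6.61 in M4, against 7.46 and 8.13 without and 7.80 and 8.22 with luciferase, so the highest M4 array was below the lowest control. The fall was 2.25-fold (-1.17 ± 0.19, limma adjusted p = 0.0448) and 2.61-fold with the block (-1.38 ± 0.15, limma adjusted p = 0.00597), with -1.25 within batch 2. Its other 2 probe sets gave -0.96 and -0.90, so all 3 lay on the same side. The call was kept in 6 of 7 fits without 1 array with the block and in 0 of 7 without it (adjusted p up to 0.37 without M4 replicate 3).

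**Figure D2:**
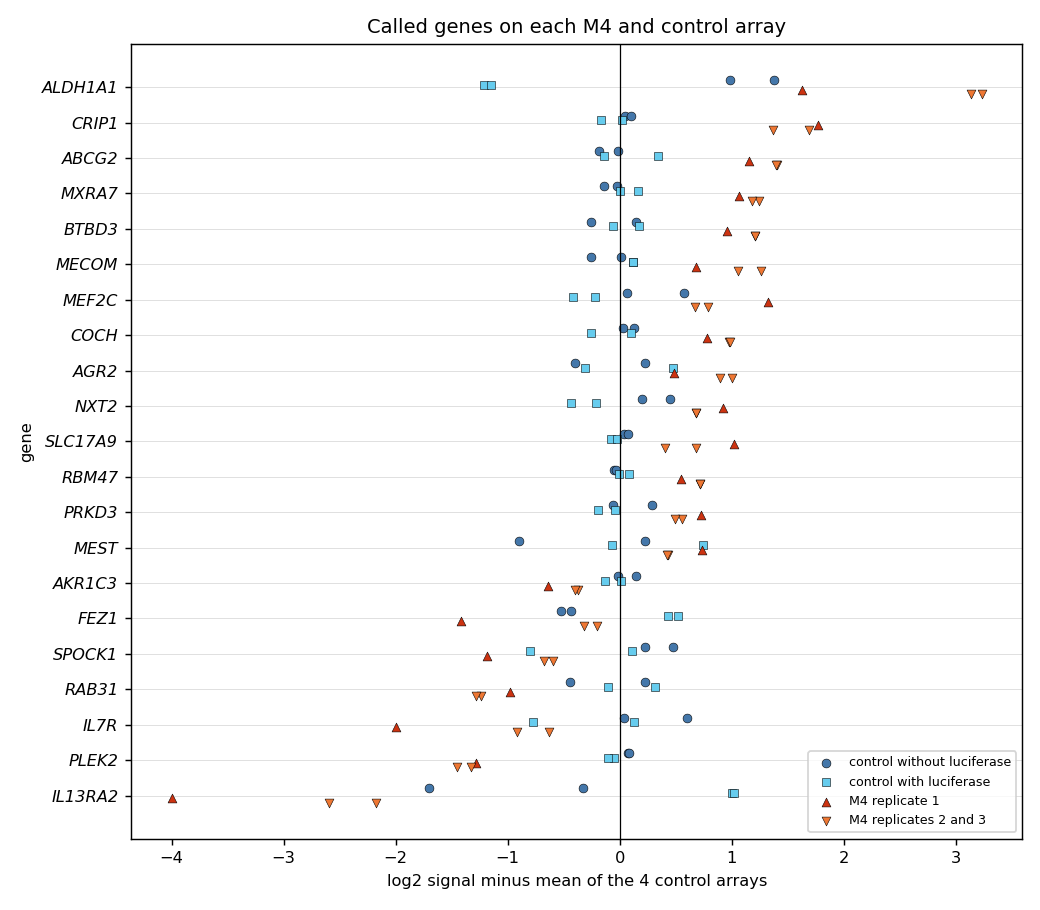
For each of the 21 genes called in either fit, points show the log2 signal of each control array (circles without, squares with luciferase) and each M4 array (triangles) minus the mean of the 4 control arrays. The M4 triangles lie apart from all controls for 17 genes and overlap them for IL7R, FEZ1, SPOCK1 and MEST. Over all genes the groups did not overlap for 11.4%, and the 21 genes were called on these same arrays. The luciferase squares lie far left of the circles for ALDH1A1 and right of them for IL13RA2.

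Of the calls from the deposited values, 3 were not made with the block. PLEK2, a pleckstrin-family protein that acts on the actin cytoskeleton, was at 6.91, 6.75 and 6.87 in M4 and at 8.27, 8.28, 8.15 and 8.10 in the controls, in tight groups apart from each other (-1.35, limma adjusted p = 0.0448; with the block -0.96, limma adjusted p = 0.0902). RBM47, an RNA-binding protein of splicing and editing, was at 10.68, 10.84 and 10.85 in M4 and at 10.08, 10.10, 10.22 and 10.13 in the controls (0.66, limma adjusted p = 0.0408; with the block 0.56, limma adjusted p = 0.12). MECOM, a zinc-finger transcription factor, was at 5.31, 5.69 and 5.89 against 4.65, 4.38, 4.75 and 4.75 (1.00, limma adjusted p = 0.0411; with the block 0.77, limma adjusted p = 0.106). None of the 3 overlapped between M4 and control, as for 11.4% of all genes, and within batch 2 they differed by -1.28, 0.56 and 0.75. MECOM, and FEZ1 below, lie outside the rule for naming genes because of their low signal and were chosen after their values were seen. The rise of MECOM rests on 1 probe set, since its other 2, with mean signals of 3.70 and 3.41, were at 0.0028 and -0.015. PLEK2 and RBM47 were called in 0 of 7 fits without 1 array, and MECOM in 1.

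With the block, 10 further genes were called, and in this fit M4 replicate 1 is the only M4 array that shares a batch with controls. IL7R, the alpha chain of the interleukin-7 receptor, was at 6.30, 7.66 and 7.38 in M4 and at 8.89, 8.34, 8.42 and 7.52 in control, a fall of 2.61-fold with the block (-1.39 ± 0.16, limma adjusted p = 0.00601) and a difference of -1.18 without it (0.411). SPOCK1, a secreted proteoglycan also named testican-1, was at 7.11, 7.71 and 7.62 against 8.77, 8.52, 7.50 and 8.40, a fall of 3.12-fold with the block (-1.64 ± 0.25, limma adjusted p = 0.0308; -0.82 without it). FEZ1, an adaptor of kinesin transport, was at 4.05, 5.15 and 5.26 against 4.94, 5.02, 5.89 and 5.98, a fall of 2.80-fold with the block (-1.48 ± 0.22, limma adjusted p = 0.0308; -0.64 without it). The groups overlapped for each of these 3 genes, and M4 replicate 1 was the lowest array. A second FEZ1 probe set was at -0.094, so that fall rests on 1 probe set. AKR1C3, an aldo-keto reductase of steroid and prostaglandin metabolism, was at 11.98, 12.25 and 12.23 against 12.77, 12.61, 12.64 and 12.49, without overlap, and fell 1.51-fold with the block (-0.59 ± 0.09, limma adjusted p = 0.0312; -0.47 without it).

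The block-only calls that rose were SLC17A9, NXT2, MEF2C, AGR2, MEST and PRKD3. SLC17A9, the vesicular carrier of ATP, was at 6.87, 6.26 and 6.54 in M4 against 5.89, 5.93, 5.78 and 5.83, and rose 1.90-fold with the block (0.93 ± 0.11, limma adjusted p = 0.00662). NXT2, a cofactor of nuclear mRNA export encoded on chromosome X, was at 9.51, 9.26 and 9.26 against 9.03, 8.78, 8.37 and 8.14, and rose 1.95-fold (0.96 ± 0.13, limma adjusted p = 0.0153). Both stood above all controls, NXT2 by little over the control without luciferase replicate 1, and the second NXT2 probe set gave 0.88 with the block. MEF2C, a MADS-box transcription factor of muscle, neurons and blood cells, was at 7.12, 6.46 and 6.58 against 6.36, 5.86, 5.38 and 5.57, and rose 2.24-fold (1.16 ± 0.19, limma adjusted p = 0.0418). AGR2, an endoplasmic reticulum protein of mucus-secreting cells, was at 10.90, 11.31 and 11.42 against 10.64, 10.02, 10.90 and 10.11, and rose 1.63-fold (0.70 ± 0.11, limma adjusted p = 0.0418). AGR2 in M4 replicate 1 was barely above the highest control. MEST, an imprinted gene, overlapped the controls and was at 0.97 with the block (limma adjusted p = 0.0456) and 0.53 without it. Without the block the differences of these genes were 0.70 for SLC17A9, 0.76 for NXT2, 0.93 for MEF2C and 0.79 for AGR2, none called. Of the 7 fits with the block that left out 1 array, IL7R was called in 5, SLC17A9 in 4, NXT2 and SPOCK1 in 3, PRKD3 in 2, FEZ1, MEF2C and MEST in 1, and AGR2 and AKR1C3 in 0. The highest adjusted p came without M4 replicate 1, as for IL7R at 0.322 and SLC17A9 at 0.324, or without control with luciferase replicate 2, as for SPOCK1 at 0.255.

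The study's own 4 genes were chosen on these samples, so their direction in M4 is not independent evidence. PRKD3, a protein kinase D, was at 9.62, 9.45 and 9.38 in M4 against 9.18, 8.83, 8.85 and 8.70, without overlap, and rose 1.78-fold with the block (0.83 ± 0.11, limma adjusted p = 0.0179; 0.59 without it, 0.715). SUSD5, a sushi-domain protein, was at 5.66, 4.98 and 5.29 against 4.41, 3.98, 4.39 and 4.40, all controls under the lower quartile of their arrays. It differed by 1.02 without and 1.22 with the block (limma adjusted p = 0.431 and 0.0577). MCAM, an adhesion molecule of endothelium and melanoma, was at 6.81, 6.01 and 6.14 against 5.25, 5.44, 5.53 and 5.60 (0.87 and 1.05, limma adjusted p = 0.479 and 0.0622). TCF4, a basic helix-loop-helix factor, was at 6.53, 5.93 and 6.41 against 5.61, 5.47, 5.67 and 5.73 (0.67 and 0.71, limma adjusted p = 0.439 and 0.335). All 4 lay higher on every M4 array than on every control, as did 5.92% of all genes, and M4 replicate 1 was the highest array for each. Only PRKD3 was called, and only with the block.

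Whether a difference was particular to M4 was asked by testing M4 directly against M1 and M5, the other lines of the series. The lines share the same control arrays, so their values against control are set side by side only. M5 replicates 2 and 3 fell alone in batch 4, so with the block all values of M5 rest on M5 replicate 1. Against M1, 3 genes were called without the block (0.0251%) and 14 with it (0.117%). Against M5, 258 were called without the block (2.16%), of which 213 were higher in M4, and 221 with it (1.85%), of which 101 were higher. Called against control and against both lines in the same direction were 2 genes without the block, CRIP1 and IL13RA2, and 4 with it, these and NXT2 and RAB31.

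CRIP1 was at 4.90, 4.97 and 5.09 in M1 and at 4.21, 4.84 and 4.54 in M5, all below the lowest M4 array at 5.93. M4 exceeded M1 by 1.19 ± 0.16 (limma adjusted p = 0.0186) and M5 by 1.64 ± 0.16 (limma adjusted p = 0.000437). IL13RA2 was at 9.93, 9.75 and 9.85 in M1 and at 9.42, 9.34 and 9.27 in M5. M1 lay above every control array, while M5 lay above the controls without luciferase, at 6.73 and 8.11, and just below those with it, at 9.43 and 9.45. The highest M4 array, at 6.26, lay far below the lowest of these. M4 was lower than M1 by -4.34 ± 0.40 (20.2-fold; limma adjusted p = 0.00098) and than M5 by -3.83 ± 0.40 (limma adjusted p = 0.000437). Within batch 3, where M4 replicates 2 and 3 can be set against M1 replicate 3, CRIP1 differed by 1.00 and IL13RA2 by -3.80.

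RAB31 was at -0.25 in M1 and 0.38 in M5 against control. M4 was lower than M5 by -1.55 ± 0.20 (limma adjusted p = 0.00244), and lower than M1 with the block (-1.07, limma adjusted p = 0.00929; without it -0.92, 0.553). NXT2 was at -0.077 in M1 and -1.07 in M5, and M4 exceeded M1 with the block (0.96, limma adjusted p = 0.006; without it 0.84, 0.9997) and M5 in both fits (1.83 without it, limma adjusted p = 0.00673). BTBD3 and ALDH1A1 exceeded M1 with the block, by 0.86 and 1.31 (limma adjusted p = 0.00972 and 0.00103), and not without it. For ALDH1A1, M5 stood as far above control as M4, at 2.59 and 2.67, and the difference between them was 0.077 (limma adjusted p = 0.944). With the block M4 was lower than M5 by -1.01 (limma adjusted p = 0.015), a value that rests on M5 replicate 1. ABCG2 was at 0.67 in M1 and 0.61 in M5, and M4 was not called against either line. COCH, RBM47, SLC17A9, PLEK2 and AKR1C3 lay on the same side of control in all 3 lines and were not called between M4 and either line.

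MXRA7, MECOM and AGR2 were higher in M4 than in M5, by 2.04, 1.40 and 1.23 (limma adjusted p = 0.000437, 0.00122 and 0.0181), and were not called against M1. MECOM lies on chromosome 3, where M5 itself was low. Over its 335 genes above the median signal, the median against control was -0.55 in M5 and 0.013 in M4. The median difference between M4 and M5 over these genes was 0.55. How far the calls against M5 rest on the level of M5 was not tested. IL7R was lower in M4 than in M5 by -1.72 (limma adjusted p = 0.0318). HCLS1, an adaptor of haematopoietic cells named here after its values were seen because it completes the 3 calls against M1, was at 5.61, 5.42 and 4.87 in M1. In M4 it was at 3.52, 3.80 and 3.63, under the lower quartile as in control, so this difference from M1 (-1.65 ± 0.18, limma adjusted p = 0.003) rests on the level of M1 and not on a change of M4, which was at -0.29 against control. The count of calls against M5 rested on single arrays, from 69 without M4 replicate 2 to 2443 without M5 replicate 1.

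**Figure D3:**
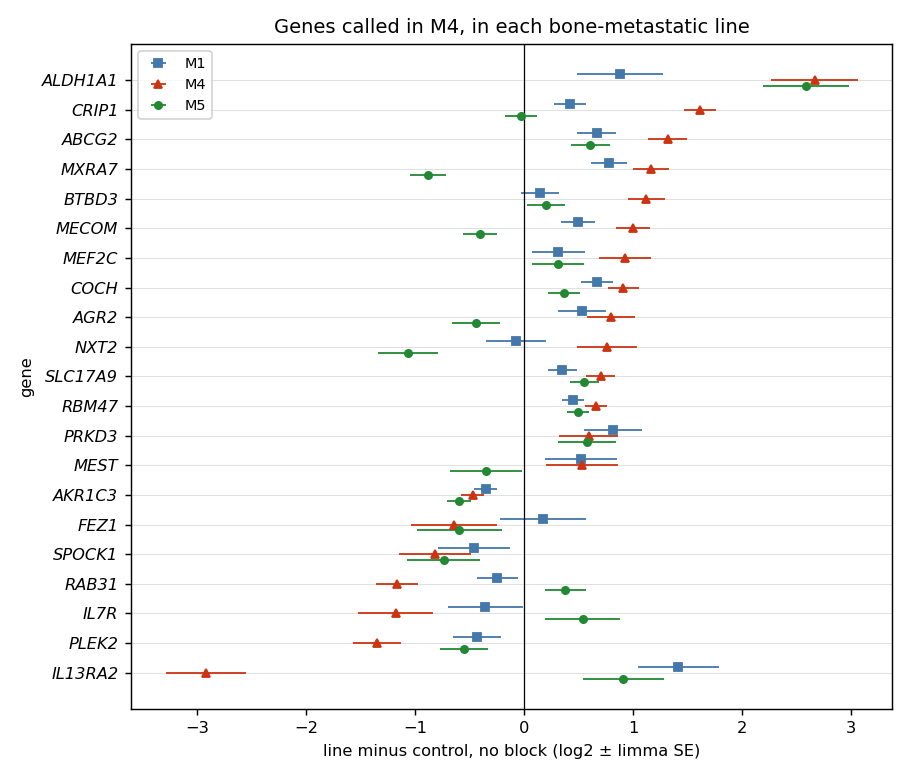
For the 21 genes called in M4 in either fit, the difference from control (log2, from the deposited values without a block) is plotted with limma's standard error for M1 (squares), M4 (triangles) and M5 (circles). M4 stands apart from both other lines for CRIP1 and IL13RA2, shares its level with M5 for ALDH1A1, and lies opposite to M5 for MXRA7, RAB31 and NXT2.

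Gene lists for the tissue, for metastasis and for common stress responses were then counted, 33 lists with 793 measured genes. Called members were found in 3 lists, against 0.092% of all genes called without the block and 0.15% with it. NRF2 targets and genes of xenobiotic metabolism held most of them. Of 37 measured members, ALDH1A1 and ABCG2 rose in both fits, AKR1C3 fell with the block, and 35 and 34 were not called. The list median was 0.013 log2 units, against -0.0011 for all genes, so the list did not shift as a whole. The genes around glutathione and redox defence, the core of the NRF2 response, had 0 of 13 called and a median of -0.027. Matrix proteins and proteoglycans held 1 called member of 44, SPOCK1, down with the block, and the list median was -0.014. PRKD3 was the called member of the study's own genes, 1 of 4. In the other 30 lists 0 members were called by limma in either fit, and their members are given as values only.

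Bone resorption and homing genes were little different. Of 32 measured, 1 was higher and 1 lower at an unadjusted p under 0.05 (6.25%, against 6.91% of all genes), and the median was 0.039 (-0.017 with the block). TNFRSF11B, osteoprotegerin, the decoy receptor that restrains osteoclast formation, was at 5.45, 6.27 and 5.99 in M4 and at no more than 5.27 on any of the 4 control arrays (0.74, limma adjusted p = 0.341; 0.42 with the block). DKK1, a Wnt inhibitor that restrains osteoblasts, was at 8.81, 8.70 and 8.64 against 8.93, 9.18, 9.55 and 9.32 (-0.53, limma adjusted p = 0.5; -0.29 with the block). Neither overlapped between groups, as for 11.4% of all genes in either direction. The list spans a wide range of signal, and 9 of its 32 genes lay under the lower quartile on all 7 arrays. At the upper end the chemokine CXCL8 was at 12.76 in control and 12.82 in M4, and SPP1, osteopontin, at 12.66 and 12.81. TNFSF11, the osteoclast-inducing ligand RANKL, was at 3.77 and 3.84 and the chemokine receptor CXCR4 at 4.54 and 4.67, near or under the lower quartile. IL6, named after its values were seen because its M4 arrays lay apart, was at 8.28, 11.04 and 10.76 in M4 against 9.35, 10.45, 9.02 and 9.74 in control. It differed by 0.39 without and -1.46 with the block, so its direction in M4 changed with the batches.

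Epithelial and mesenchymal genes moved in no common direction. Of 25 epithelial genes 0 were at an unadjusted p under 0.05, with a median of -0.0093. KRT8, a simple-epithelial keratin, was at 10.38, 9.75 and 9.85 against 10.59, 10.48, 10.55 and 10.40 (-0.51; -0.022 with the block), and JUP, plakoglobin, was at 0.46 without and -0.21 with the block. Of 28 mesenchymal genes 3 were higher and 3 lower at an unadjusted p under 0.05, a share of 21.4% against 6.91% of all genes, and the median was 0.019. SNAI2, a repressor of epithelial genes, was at 4.50, 4.57 and 4.13 against 6.19, 5.49, 6.07 and 5.06 (-1.31 ± 0.41, limma adjusted p = 0.479; -0.65 with the block). AXL, a receptor tyrosine kinase, was at 8.97, 8.27 and 8.01 against 9.74, 9.29, 9.68 and 9.60 (-1.16 ± 0.27, limma adjusted p = 0.211; -0.61 with the block). Both were below all controls on every M4 array, as were 5.53% of all genes, and neither was called.

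Adhesion receptors gave a similar picture. In the integrin and focal adhesion list of 28, 1 gene was higher and 3 lower at an unadjusted p under 0.05, 14.3% against 6.91% of all genes, and the median was -0.021 (0.00042 with the block). ITGB5, the beta5 chain of a vitronectin receptor, was at 9.15, 9.45 and 9.57 against 8.64, 8.56, 8.81 and 8.73 (0.71, limma adjusted p = 0.16; 0.41 with the block), and ZYX, a focal adhesion adaptor, was at -0.45 (-0.20 with the block). Extracellular proteases and inhibitors (48 measured, median -0.016) had SERPINB5, maspin, at -0.84 (-0.38 with the block) and SERPIND1 at 0.83 (-0.21). SERPINB5 followed the kind of control, at 8.42 and 8.16 without and 7.28 and 6.96 with luciferase, against 7.06, 6.90 and 6.64 in M4. Axon guidance genes (43 measured, median 0.024, with the block -0.024) had the ligand EFNA1 at 1.11 and SEMA3A at 0.89, which with the block were at -0.055 and 0.25. The YAP-TEAD list of 19 had 0 members higher and 4 lower at an unadjusted p under 0.05, 21.1% against 6.91% of all genes, and a median of -0.079. NT5E, the ecto-nucleotidase CD73, was at 8.63, 8.08 and 7.64 against 9.22, 9.45, 9.20 and 9.31 (-1.18 ± 0.22, limma adjusted p = 0.107; -0.85 with the block, 0.0506), below every control.

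Inflammatory and interferon genes depended on the array. The median of 32 NF-kappaB targets and cytokines was 0.11 without and -0.15 with the block. By array it was -0.23 in M4 replicate 1 and 0.23 and 0.19 in replicates 2 and 3, against -0.057 to 0.19 in single control arrays. IL18 was at 0.98 and TNFAIP2 at 0.89, with 0.77 and 0.24 with the block. The 33 interferon-stimulated genes had a median of 0.050, and -0.0070 with the block. ISG20 was at 0.83 without and -0.043 with the block, and IFI16, a DNA sensor, was at -0.74 (limma adjusted p = 0.205; -0.58 with the block, 0.0616). For IFI16 all M4 arrays, at 8.34, 8.21 and 8.15, were below the lowest control at 8.84. MHC and antigen presentation genes (26 measured, median 0.0059, with the block -0.14) had TAPBP at 0.49 (-0.14 with the block) and the peptidase ERAP1 at -0.45 (-0.49).

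Signalling pathways held no called member. In the TGF-beta and BMP list of 40 (median -0.026) SMAD3, the receptor-activated transducer of TGF-beta, was at 6.89, 7.78 and 7.54 against 5.49, 6.14, 6.50 and 6.37, above all controls (1.28 ± 0.26, limma adjusted p = 0.157; 0.66 with the block), and SMAD5 was at -0.82. SMAD5 separated the controls by array batch, at 8.13 and 8.09 in replicate 1 and 7.07 and 6.92 in replicate 2, against 6.71, 6.73 and 6.75 in M4, and with the block it was at -0.013. The Wnt list of 34 had a median of 0.019 with FZD5 at 0.66 (0.26 with the block), and the Notch list of 15 a median of 0.042 with RBPJ at 0.41 (0.064) and JAG1 at 0.26 (0.23). The EGFR and MAPK feedback list of 31 had a median of 0.013 (-0.0078 with the block), with ETV1 at 0.78 without and 0.062 with the block. Among insulin-like growth factor genes (13 measured, median -0.072) IGFBP2 was at -0.69 (-0.88 with the block) and IGFBP4 at 0.64 (0.48). Immediate early genes (19 measured, median -0.055) had JUNB at -0.56 (-0.46 with the block) and FOSL1 at -0.53 (-0.51).

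Growth and stress genes showed small differences. The 33 genes of G1/S control and replication had a median of -0.0064 without and 0.029 with the block, where CDK2 was at -0.30 (-0.13 with the block) and CCNE2 at -0.29 (-0.24). The 32 genes of G2/M and mitosis had a median of -0.049 without and 0.050 with the block, so its sign turned. There CDC20 was at -0.43 (-0.074 with the block) and CCNB1 at -0.34 (-0.24). The p53 and apoptosis list of 29 had a median of 0.047 (-0.0097 with the block), with ZMAT3 at 0.53 (0.17) and CASP8 at -0.31 (-0.045). The hypoxia and glycolysis list of 40 had a median of -0.010, with the glucose transporter SLC2A3 at 0.57 (0.38 with the block) and ALDOC at 0.51 (0.27). Cholesterol and fatty acid synthesis genes (26 measured, median 0.099, with the block -0.056) had MSMO1 at 0.54 (0.17 with the block) and FDPS at 0.37 (0.065). In the stress response list of 35 (median -0.0013), STC2 was at -0.73 (-0.97 with the block) and HERPUD1 at 0.52 (0.10). The parts of this list differed. Its 15 unfolded protein response genes had a median of 0.16 (0.034 with the block). Of these, 7 lay above all controls and 1 below, against 5.92% and 5.53% of all genes. The 12 amino acid response genes had a median of 0.15 (0.093 with the block). All 8 heat shock genes were lower, as were 6026 of all 11963 genes, with a median of -0.12 (-0.071 with the block). The median of the heat shock genes against control was -0.026 in M1 and -0.17 in M5. Each of these genes stayed uncalled, and most of the differences were smaller with the block.

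In the lineage lists, values in brackets are those with the block. The lung list of 16 (median -0.041) had FOXA1 at 0.26 (0.044) and GATA6 at -0.22 (-0.27), and the neuroendocrine list of 13 (median -0.032) had CHGA at 0.38 (0.49) and SCG2 at 0.25 (0.15). Among markers of other cells the largest differences were COL3A1 at 0.50 (0.93) and ACTA2 at 0.16 (0.075) for fibroblasts, PHEX at 0.28 (0.14) and OMD at -0.083 (-0.00017) for osteoblasts, and CTSK at 0.22 (0.23) and TNFRSF11A at -0.10 (-0.14) for osteoclasts. Haematopoietic CD3E was at 0.23 (0.28) and CD14 at -0.11 (-0.10), and endothelial TEK at -0.15 (-0.067) and PECAM1 at -0.15 (-0.18).

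**Figure D4:**
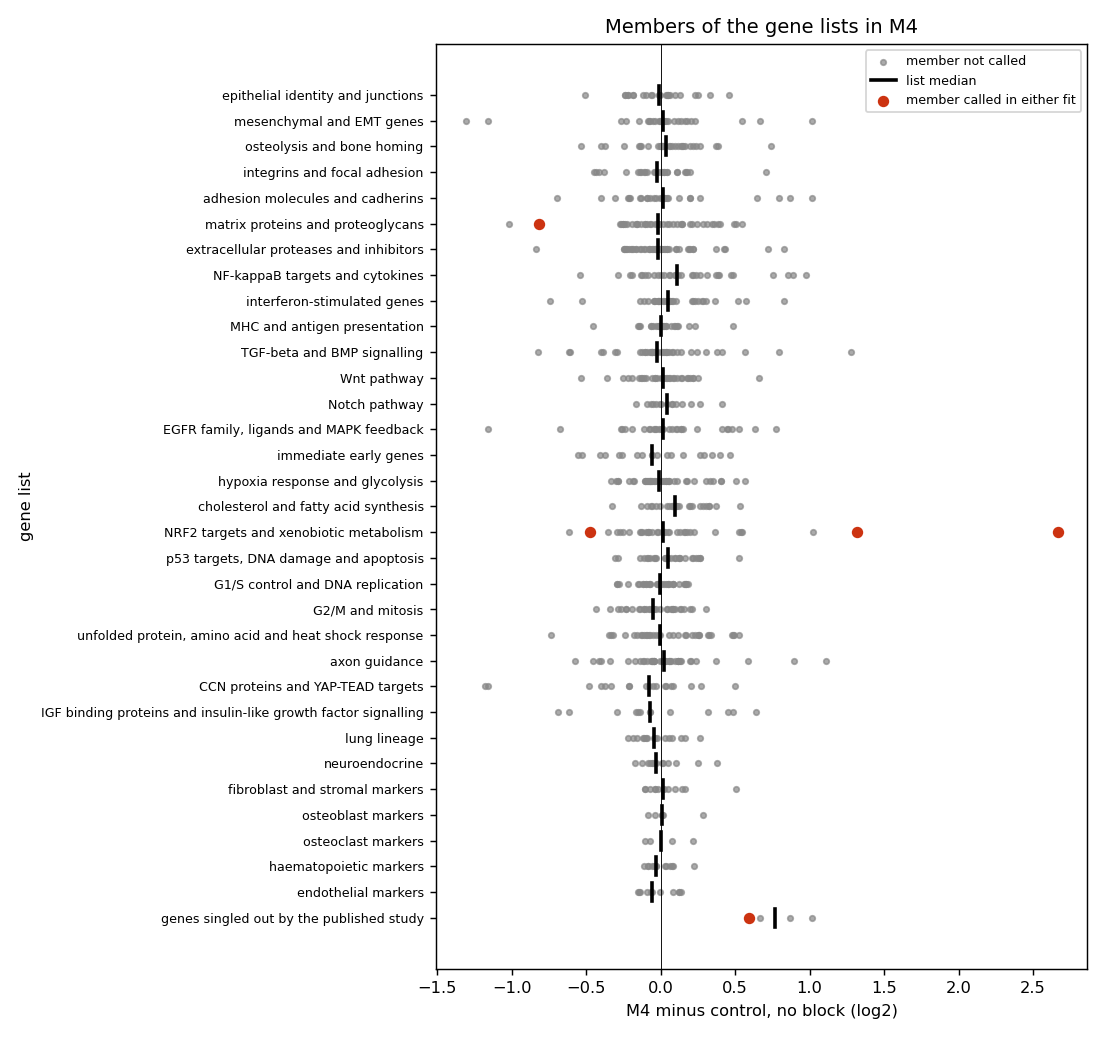
Each point is the M4 minus control difference (log2, without the block) of a measured member of the gene list named on the y axis, the black bar is the list's median, and red points were called in either fit. List medians lie near 0 except for the 4 genes of the published study, and the called members ALDH1A1, ABCG2, AKR1C3, SPOCK1 and PRKD3 stand in 3 lists.

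A chromosome-wide difference was found on chromosome 5. Of its 270 genes with a signal above the median, 83.0% were lower in M4 than in control, against 48.0% of such genes on all chromosomes. Their median difference was -0.17 log2 units without and -0.24 with the block, and -0.22 within batch 2. The median of each M4 array minus control was -0.19, -0.15 and -0.21 in replicates 1 to 3, while single control arrays lay between -0.12 and 0.091. Thus every M4 array was lower than every control array, and the controls with luciferase, at -0.12 and -0.018, were lower than those without, at 0.057 and 0.091. Against controls without luciferase the median was -0.24 and against those with it -0.12. All other chromosomes had medians between -0.019 and 0.086, the latter on chromosome 21. On chromosome 5, 34.4% of the genes had all M4 arrays below all controls, against 7.61% of the genes of all chromosomes.

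The difference ran along the whole of chromosome 5. Cut into 8 consecutive stretches of at least 31 genes, its medians were between -0.23, in the stretch from IL7R to ERBIN, and -0.12, in the stretch from SKIC3 to LMNB1. Each stretch was lower in each M4 array than the mean of the controls. From SDHA to ERBIN and from CLINT1 onward, all M4 arrays also lay below the lowest control array. In each stretch between SREK1 and THG1L, however, an M4 array lay above the lowest control array. From BRD8 to LARS1, for example, M4 replicate 1 was at -0.089 and the lowest control at -0.14. Over the 270 genes, the other lines gave medians of -0.15 for M1 and -0.0026 for M5 against the same controls. The median difference between M4 and M1 over these genes was -0.034, or -0.10 within batch 3, and between M4 and M5 it was -0.19. Of all 507 measured genes of the chromosome, 0 were called without the block and 3 with it, namely the falls of IL7R and SPOCK1 and the rise of MEF2C, which lies under the signal limit of the 270. The genes furthest below control were IL7R at -1.18 (-1.39 with the block), PDLIM7 at -0.85 (-0.25), SMAD5 at -0.82 (-0.013), SPOCK1 at -0.82 (-1.64), SLC1A3 at -0.79 (-0.52) and STC2 at -0.73 (-0.97), named after their values were seen. ERAP1 and CCNB1 of the lists above also lie on chromosome 5. DNA was not measured, and the part of chromosome content in these values was not tested.

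**Figure D5:**
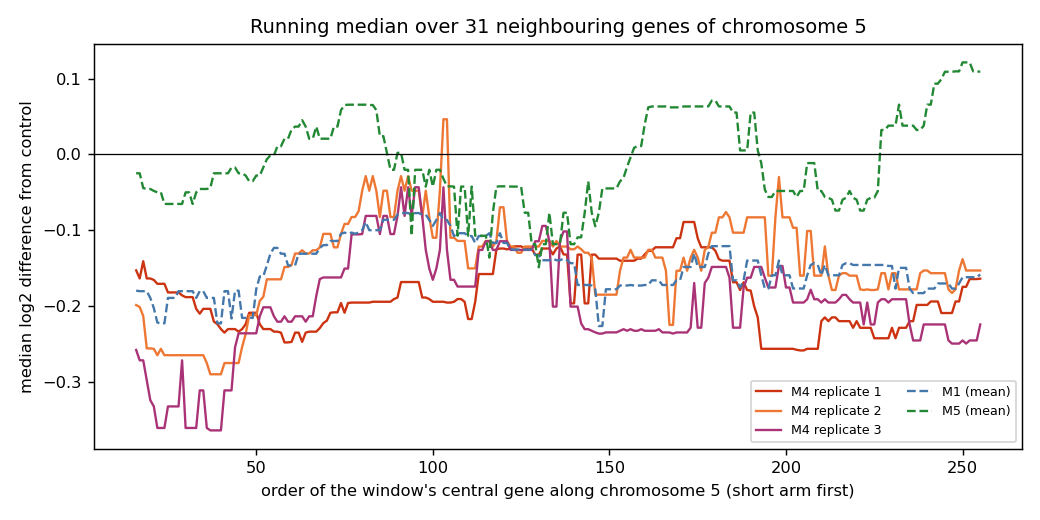
Running medians over 31 neighbouring genes of chromosome 5 with a signal above the median are plotted against gene order from the short arm, as log2 difference from the mean of the controls, for each M4 array (solid lines) and the means of M1 and M5 (dashed). The M4 and M1 lines lie below 0 along the chromosome except for 1 short stretch of M4 replicate 2 near gene 103, and the M5 line moves around 0.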

How the data were processed

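RNA of the 13 cell pools was hybridised to 1-colour Affymetrix arrays. The deposited table holds log2 signals of 22277 probe sets per array, which per the submitters' processing notes come from RMA, run by the authors (version not given in the sources used here). No raw intensities were used, and precision is limited by how many arrays each group has. The table includes 62 control probe sets of the array maker, which entered no test. Of the rest, 19064 list 1 gene, 1043 several and 2108 none, by the platform annotation. Each gene took its probe set with the highest mean, giving 11963 genes, of which 11954 matched RefSeq and 11931 lie on chromosomes 1 to 22 and X. No gene was removed for low signal.

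Differences were fitted with limma 3.58.1 in R 4.3.3 on all 13 arrays with 5 groups, and p-values were adjusted over all genes by Benjamini-Hochberg. Ward clustering of the control probe sets gave the 4 array batches used as a block. The clustering was made on these arrays and the labels name no batch. The members, gene lists and tests were chosen with earlier results of these data known. Named genes were called genes with the larger group mean above the median signal, those called against control and both other lines, the called or else the 2 most different members of each list, and the study's 4 genes. The 33 lists hold 886 genes, of which 793 were measured. Chromosome medians used genes with a mean signal above the median. Promoters came from RefSeq, searched on both strands. The fit without the block was tested on simulated data with independent noise and no array batches, so the simulation does not cover the block. Alternatives covered the block, the controls used, the probe set per gene, scaling, the threshold and leaving out each array.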

Additional observations from a re-analysis of the deposited data

Results flagged for a closer look

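The difference between M4 and another line passed the limma threshold for genes called in M4, in a direct test of line against line. Against M1 this held for CRIP1 (1.19, limma adjusted p = 0.0186) and IL13RA2 (-4.34, limma adjusted p = 0.00098). Against M5 it held for 9 genes. Of all genes, 0.0251% were called against M1 and 2.16% against M5 without the block. The called genes were chosen on the same M4 arrays that enter these tests, so a larger share among them is not separate evidence. CRIP1 differed by 1.64, MXRA7 by 2.04 and IL13RA2 by -3.83, each at a limma adjusted p = 0.000437. MECOM differed by 1.40 (limma adjusted p = 0.00122), RAB31 by -1.55 (limma adjusted p = 0.00244) and NXT2 by 1.83 (limma adjusted p = 0.00673). AGR2 differed by 1.23 (limma adjusted p = 0.0181), BTBD3 by 0.92 (limma adjusted p = 0.0236; 0.37 with the block) and IL7R by -1.72 (limma adjusted p = 0.0318).

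Probe sets that list several genes or none take no part in the comparisons above. Among these 3151 probe sets limma called 0 when no block was used, and 149 lay at an unadjusted p under 0.05. Under the batch block it called 2, both listing several genes, at 0.80 (limma adjusted p = 0.0197) and 1.23 (limma adjusted p = 0.00539). Without the block these were at 0.39 and 0.62. Among the 4 control arrays, 0 of the 21 called genes had an array that stood apart by Dixon's test. Only called genes were checked, and they were called on these same arrays, where a wide spread of controls works against a call. The test looks for a single array, so ALDH1A1, whose controls lay apart by kind, was not flagged. The count of 0 therefore does not show that the controls were alike.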

How the results depend on the processing

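The 11 calls of M4 against control became 18 with the array batches as a block, 49 with 3 batches from spike-in probe sets, 3 with the first digit of the label number as a block, 33 with only the 7 arrays, 1 against controls without and 3 against those with luciferase, 20 with an intensity trend and robust prior, 5 with the probe set of largest variance and 1 at an adjusted p under 0.01. With the replicate number as a block 2 were called. Same-numbered control and M4 arrays correlated between -0.28 and -0.051 in their deviations. These values cannot show whether the numbers pair arrays, since batch 2 joins M4 replicate 1 with replicate 2 of each control. Median centring gave 10 calls, of which 80.0% were up, against 72.7% in the values as deposited. Leaving out 1 array gave 1 to 9 calls, and 2 to 19 for the 18 with the block, which became 49 with 3 batches. M4 against M1 went from 3 to 14 with the block, and from 2 to 7 without 1 array; M4 against M5 (258) went from 69 to 2443. The chromosome 5 median was -0.24 with the block, -0.24 and -0.12 against controls without and with luciferase, and -0.21 to -0.15 without 1 array. Of the named genes, none of them called, signs turned with the batch block for EFNA1 (-0.055), ISG20 (-0.043), JUP (-0.21), SERPIND1 (-0.21) and TAPBP (-0.14), with the first digit for ACTA2 (-0.058) and SERPIND1 (-0.0011), against controls without luciferase for JAG1 (-0.084) and TEK (0.0041), and without control with luciferase replicate 2 for TNFRSF11A (0.0055). The cause was not tested.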
